A study of Homo sapiens with 6 samples.

Results

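The genes described here are 10 regulators and effectors of the ATF4 arm of the integrated stress response: the eIF2 kinases EIF2AK3 and EIF2AK4, the transcription factors ATF4, ATF5 and DDIT3, the co-factor NUPR1, the feedback genes TRIB3 and PPP1R15A, and the mTORC1 inhibitors DDIT4 and SESN2. They were taken by symbol from a table of 33451 genes, and all 10 passed the filter on low counts that left 18183 genes for testing. mRNA was sequenced from MDA-MB-453, an established human breast cancer cell line of luminal apocrine type. The cells were kept for 5 days with 100 nM 25(OH)D, the circulating precursor of the vitamin D hormone, or with its solvent alone (control), and 3 libraries were made per group. The labels give no genetic change in either group, and the results concern this cell line only. The genes were chosen with their difference between the groups already known, so their values are given as a description and without p-values.

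In the integrated stress response, kinases that sense unfolded protein, amino acid shortage or other stress phosphorylate the initiation factor eIF2. Translation then falls in general, while the mRNA of ATF4, which carries short upstream reading frames, is translated better. ATF4 protein binds DNA as a dimer with other bZIP proteins and raises the transcription of genes for amino acid uptake and synthesis and for tRNA charging, together with DDIT3, TRIB3 and other genes that can act back on the pathway. None of these steps at the level of protein or phosphorylation was measured here.

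The libraries held 33268860 to 40928176 counts, and 10 of 10 marker genes of luminal apocrine breast cells were measured. Their summed level was 12310 to 12650 CPM (read counts scaled to the library total) in control and 9940 to 10140 CPM in 25(OH)D libraries, of which XBP1 alone took a mean of 7947 CPM in control and 5412 CPM in 25(OH)D libraries. Markers of other cell types were scarce: 6 leukocyte markers summed to 0.245 to 0.572 CPM over all libraries and 6 basal breast markers to 2.98 to 3.58 CPM. The measured fibroblast markers summed to 36.5 to 39.0 CPM in control and 31.97 to 34.71 CPM in 25(OH)D libraries, nearly all of it COL1A1, while LUM had at most 2 counts in any library. Transcripts of the mitochondrial genome took 7.85% to 7.99% of counts in control and 8.89% to 9.24% in 25(OH)D libraries; the part of this shift in the results was not tested.

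The main transcript-level pattern was a lower level of ATF4 and of several of its effectors in 25(OH)D libraries, beside a higher level of the amino acid sensor EIF2AK4. ATF4, DDIT3, TRIB3 and SESN2 lay 40.4% to 44.1% below control and NUPR1 lay 28.6% below. PPP1R15A lay 12.5% below control, and EIF2AK4 lay 40.7% above it. ATF5, DDIT4 and EIF2AK3 had overlapping libraries. In edgeR's quasi-likelihood test at an adjusted p under 0.05, 6 of the 10 genes were called lower and 1 was called higher. Of all 18183 genes tested, 33.8% were called, 16.5% as lower and 17.3% as higher; the genes were picked from this same contrast, so nothing is read from their count. The groups did not overlap for 7 of the 10 genes, 6 of them lower and 1 higher, against 45.7% of all genes tested (22.9% lower and 22.8% higher). The median log2 fold change of the 10 genes was -0.34, and that of all genes was -0.01 with quartiles of -0.23 and 0.22. In such bulk RNA, fewer cells expressing a gene and less RNA of it per cell cannot be told apart.

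**Figure D1:**
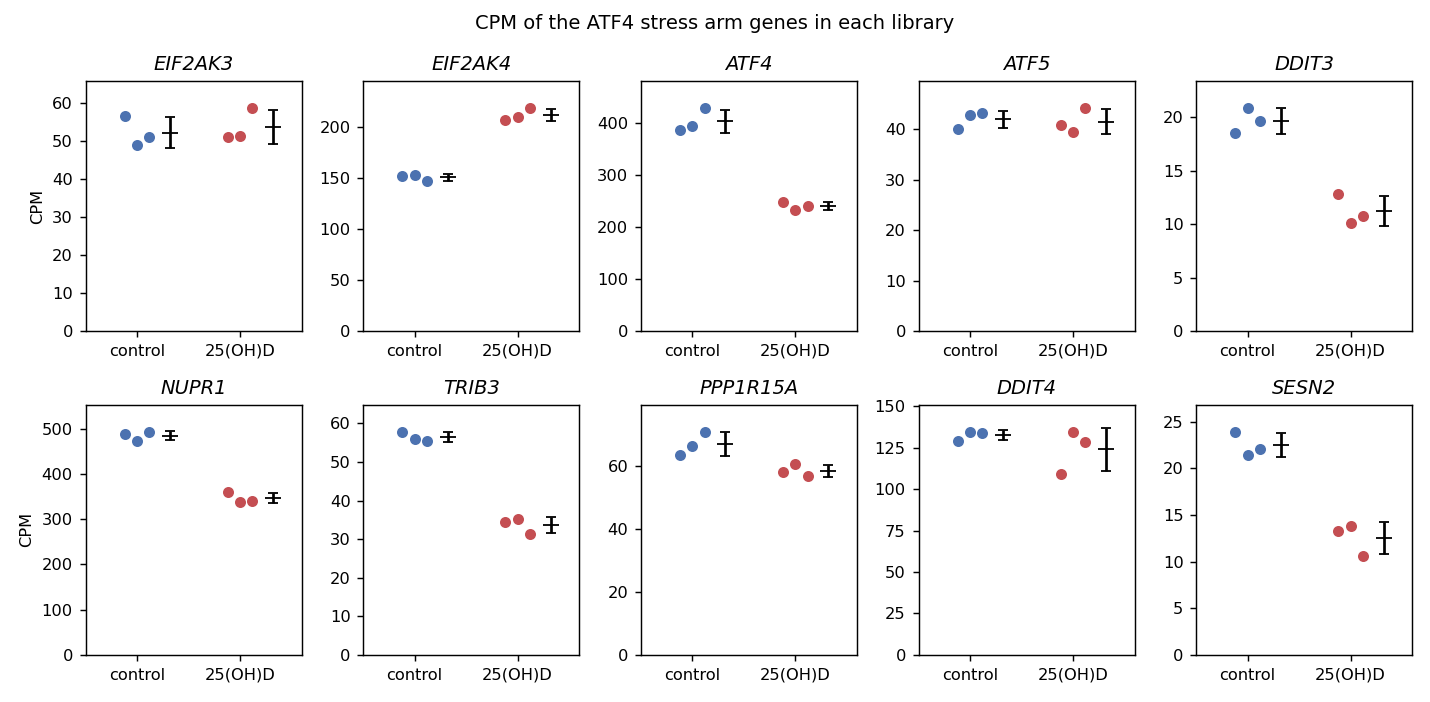
Level in CPM (vertical axes, from 0) of the 10 ATF4 stress arm genes in each of 3 control libraries (blue points) and 3 25(OH)D libraries (red points), with the mean and SD of each group in black. ATF4, DDIT3, TRIB3, SESN2, NUPR1 and PPP1R15A lie lower in every 25(OH)D library than in any control library, EIF2AK4 lies higher, and ATF5, DDIT4 and EIF2AK3 overlap.

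The eIF2 kinases in the group differed: EIF2AK3 had overlapping libraries, while EIF2AK4 was higher in 25(OH)D libraries. EIF2AK3 (PERK; chr2:88556741-88627576, minus strand, GRCh38), which sits in the endoplasmic reticulum membrane and responds to unfolded protein, had 56.7, 48.9 and 51.0 CPM in control libraries and 51.0, 51.4 and 58.8 CPM in 25(OH)D libraries. The highest and the lowest library of the 6 were a 25(OH)D and a control library, and the rest lay between them with no order by group. Its log2 fold change was 0.04 (95% interval -0.11 to 0.19).

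EIF2AK4 (GCN2; chr15:39934146-40035591, plus strand), which is activated by uncharged tRNA when amino acids run short, had 152, 153 and 147 CPM in control libraries and 207, 210 and 219 CPM in 25(OH)D libraries. Every 25(OH)D library was above every control library. It was the only gene of the 10 called higher, with a log2 fold change of 0.49 ± 0.04 (SE, n = 3 per group; 95% interval 0.41 to 0.58). Among all genes tested it lay at percentile 88.3 of the fold changes. Leaving out any 1 library kept its value between 0.48 and 0.51.

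The other eIF2 kinases, added here as paralogues, give the context per length. In RPKM, the read count scaled to exon length and library total, EIF2AK1, the haem-regulated kinase, was the most abundant at 35.4 ± 0.982 in control and 36.9 ± 0.630 in 25(OH)D libraries (SD, n = 3). EIF2AK2 (PKR), the kinase activated by double-stranded RNA, was at 15.3 ± 1.47 in control and 19.1 ± 0.867 RPKM in 25(OH)D libraries. EIF2AK4 moved from 12.8 ± 0.322 to 17.4 ± 0.457 RPKM. EIF2AK3 was the lowest kinase in both groups, at 9.75 ± 0.767 and 9.72 ± 0.757 RPKM. The order of the kinases depends on the annotated exon bases, such as 11957 for EIF2AK4 and 5434 for EIF2AK3. EIF2AK2 rose (log2 fold change 0.36, SE 0.06, adjusted p = 0.000217 in edgeR's quasi-likelihood test), while EIF2AK1 had a log2 fold change of 0.10 (SE 0.04, adjusted p = 0.0520 in the same test).

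ATF4 (chr22:39519695-39522685, plus strand), the transcription factor that the arm is named after, had 387, 394 and 429 CPM in control libraries and 249, 232 and 241 CPM in 25(OH)D libraries. The groups were far apart relative to their spread, which was largest in control through control library 3. The log2 fold change was -0.75 ± 0.05 (SE; 95% interval -0.84 to -0.65), and it stayed between -0.77 and -0.69 in fits that each dropped 1 library.

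ATF5 (chr19:49928702-49933935, plus strand), a close relative of ATF4 that is also translated through upstream reading frames and acts in the mitochondrial stress response, was at 40.1, 42.8 and 43.2 CPM in control libraries and 40.8, 39.5 and 44.3 CPM in 25(OH)D libraries. The libraries of both groups were interleaved. Its log2 fold change was -0.02 (95% interval -0.15 to 0.12), so this design leaves room for a change of up to about that size in either direction. Its exons share 626 bases (21.2%) with NUP62 on the opposite strand.

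DDIT3 (CHOP; chr12:57516588-57520517, minus strand), a C/EBP family factor induced by ATF4 and known for promoting cell death in prolonged stress, had 18.5, 20.9 and 19.6 CPM in control libraries and 12.8, 10.1 and 10.7 CPM in 25(OH)D libraries. All 25(OH)D libraries lay below all control libraries. The log2 fold change was -0.81 ± 0.10 (SE; 95% interval -1.01 to -0.60).

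DDIT3 shares 355 of its 1266 exon bases (28.0%) with the methionyl-tRNA synthetase gene MARS on the opposite strand, and MARS itself fell (log2 fold change -0.62, SE 0.05, adjusted p = 1.55e-07 in edgeR's quasi-likelihood test). The counts appear not to separate such pairs by strand, although the strand setting is not given. Of 12 genes lying inside the exons of an abundant gene on the opposite strand, 10 had at least 0.3 times its counts per base. The median ratio was 1.02, with values from 0.0 to 10.8, so the mean density of a partner is only a rough guide to shared bases. At the mean density of MARS, the shared bases would hold 29.7% of the DDIT3 count in control and 33.9% in 25(OH)D libraries. With these expected reads subtracted, a setting chosen after seeing the data, the DDIT3 log2 fold change was -0.89.

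NUPR1 (chr16:28532708-28539174, minus strand), a small stress-induced chromatin co-factor, had 487, 473 and 493 CPM in control libraries and 359, 339 and 340 CPM in 25(OH)D libraries. The gap between the groups was much wider than the spread within either. The log2 fold change was -0.49 ± 0.04 (SE; 95% interval -0.57 to -0.41).

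TRIB3 (chr20:362835-397559, plus strand), a pseudokinase induced by ATF4 and DDIT3 that binds ATF4 and AKT and restrains both, had 57.9, 55.9 and 55.4 CPM in control libraries and 34.4, 35.1 and 31.2 CPM in 25(OH)D libraries. The groups did not overlap, and the control libraries were closer together than the 25(OH)D libraries. The log2 fold change was -0.75 ± 0.06 (SE; 95% interval -0.88 to -0.62). Of its paralogues, TRIB2 fell by 0.40 on the log2 scale (SE 0.10, adjusted p = 0.00604 in edgeR's quasi-likelihood test) and TRIB1 had a log2 fold change of 0.03 (SE 0.12, adjusted p = 0.888). TRIB3 was the most abundant of the Tribbles genes per length, at 16.7 RPKM in control libraries, with TRIB1 at 2.40 and TRIB2 at 3.21 RPKM.

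PPP1R15A (GADD34; chr19:48872392-48876057, plus strand), the stress-induced subunit that directs protein phosphatase 1 to eIF2 and so ends the response, had 63.5, 66.2 and 70.9 CPM in control libraries and 58.1, 60.5 and 56.8 CPM in 25(OH)D libraries. The groups did not overlap, but the lowest control and the highest 25(OH)D library were close. The log2 fold change was -0.19 ± 0.06 (SE; 95% interval -0.31 to -0.07), inside the quartiles of all genes. Its call rested on single libraries: it was lost without control library 3, 25(OH)D library 1 or 25(OH)D library 3, where the log2 fold change was -0.14, -0.18 and -0.16. The constitutive counterpart PPP1R15B was at 15.9 ± 0.455 RPKM in control and 14.8 ± 0.640 RPKM in 25(OH)D libraries (log2 fold change -0.06, SE 0.05, adjusted p = 0.411).

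Of the mTORC1 inhibitors, SESN2 was lower in 25(OH)D libraries, while the reads of DDIT4 could not be told apart from those of an antisense gene. DDIT4 (REDD1; chr10:72273920-72276036, plus strand), which releases the TSC complex to inhibit mTORC1, had 129, 135 and 134 CPM in control libraries and 109, 134 and 129 CPM in 25(OH)D libraries. Only 25(OH)D library 1 lay apart, below the other 5, and the groups overlapped. The log2 fold change was -0.10 (95% interval -0.23 to 0.04), and it was -0.01 without 25(OH)D library 1. The antisense gene RP11-442H21.2 lies wholly within DDIT4 exons over 847 bases (41.2% of DDIT4), and its own row held reads equal to 83.3% of the DDIT4 count in control and 82.6% in 25(OH)D libraries. The reads of this pair cannot be told apart, so both the level and the fold change given for DDIT4 may belong largely to either gene. The subtraction made for DDIT3 was not applied here, since a gene lying wholly inside another leaves nothing to separate them by.

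SESN2 (chr1:28259527-28282491, plus strand), the leucine-binding sestrin that holds back GATOR2 and with it mTORC1, had 23.9, 21.4 and 22.1 CPM in control libraries and 13.3, 13.8 and 10.6 CPM in 25(OH)D libraries. Every 25(OH)D library was well below every control library. Its log2 fold change of -0.84 ± 0.10 (SE; 95% interval -1.05 to -0.63) lay at percentile 4.12 of all genes tested. SESN2 and DDIT3 had the lowest values of the 10 genes, with overlapping intervals and an order that changed with the setting: DDIT3 was the lower on log2(RPKM + 1), at -0.79 against -0.74, and without 25(OH)D library 3, at -0.76 against -0.72. SESN2 was the main sestrin in these cells, at 6.61 RPKM in control libraries, against 0.970 for SESN1 and 0.291 for SESN3. SESN1 (log2 fold change -0.03, SE 0.15, adjusted p = 0.888) and SESN3 (log2 fold change -0.41, SE 0.18, adjusted p = 0.103) did not pass the test.

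**Figure D2:**
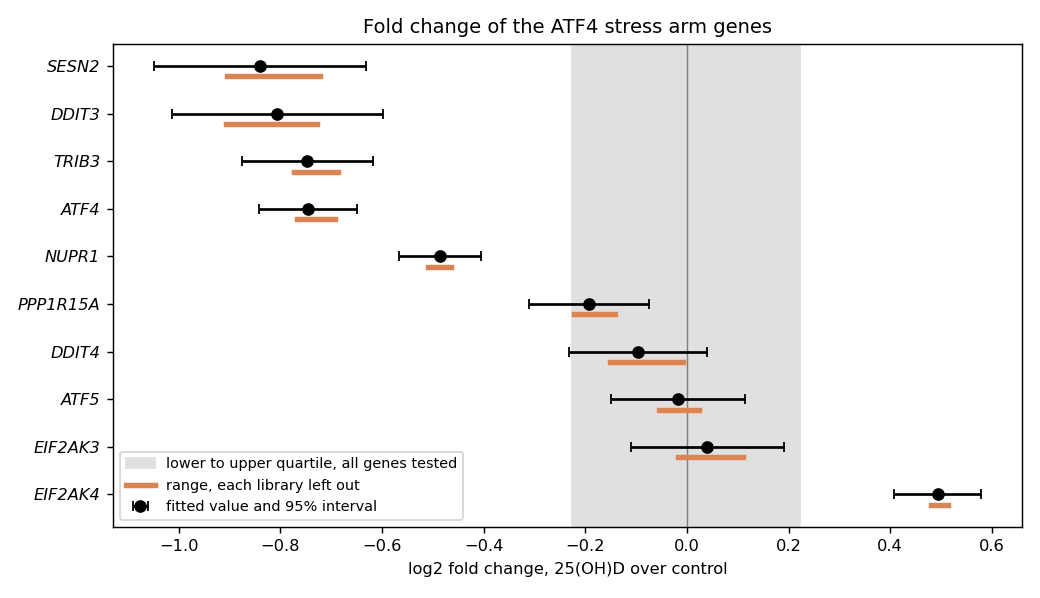
Log2 fold change of 25(OH)D over control (horizontal axis) for the 10 ATF4 stress arm genes, ordered by value, with fitted values as black points, 95% intervals as black bars and the range over fits that leave out each library in turn as orange bars. The grey band marks the quartiles of all genes tested, -0.23 and 0.22; SESN2, DDIT3, TRIB3, ATF4 and NUPR1 lie left of it, EIF2AK4 lies right of it, and PPP1R15A, DDIT4, ATF5 and EIF2AK3 have their fitted values inside.

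The 10 genes spanned a wide range of levels. RPKM divides by all annotated exon bases of a gene, such as 2514 for ATF4, 5674 for NUPR1 and 11957 for EIF2AK4. The length of the transcripts present was not measured, and the order below depends on these lengths. In CPM, NUPR1 was above ATF4 in both groups, at 484.6 against 403.5 in control and 346.0 against 240.6 in 25(OH)D libraries. Per length, control libraries had ATF4 highest at 163 ± 8.31 RPKM (SD, n = 3), followed by NUPR1 at 86.6, DDIT4 at 65.3 and PPP1R15A at 21.9 RPKM. The place of DDIT4 in this order is not secure in either group, because most of its count could be reads of its antisense gene. TRIB3 at 16.7 and DDIT3 at 15.7 RPKM came next and overlapped, and below them ATF5 at 14.4, EIF2AK4 at 12.8, EIF2AK3 at 9.75 and SESN2 at 6.61 RPKM did not overlap with their neighbours. ATF4 was above 98.7% of the genes tested, and SESN2 was above 68.6%.

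In 25(OH)D libraries ATF4 was still highest, at 94.2 ± 2.70 RPKM, and SESN2 still lowest, at 3.58 ± 0.507 RPKM. NUPR1 at 60.0 and DDIT4 at 59.3 RPKM now overlapped. EIF2AK4 moved up from rank 8 to rank 5 at 17.4 RPKM, next to PPP1R15A at 18.6 RPKM. TRIB3 went from rank 5 to rank 8 and DDIT3 from rank 6 to rank 9, at 9.63 and 8.73 RPKM, with TRIB3 overlapping both EIF2AK3 above it and DDIT3 below it. DDIT3, ATF5 and EIF2AK3 also share exon bases with genes on the other strand, which at their mean density would hold 29.7%, 11.3% and 14.7% of the control counts, counting NUP62 for ATF5 and AC104134.2 for EIF2AK3.

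**Figure D3:**
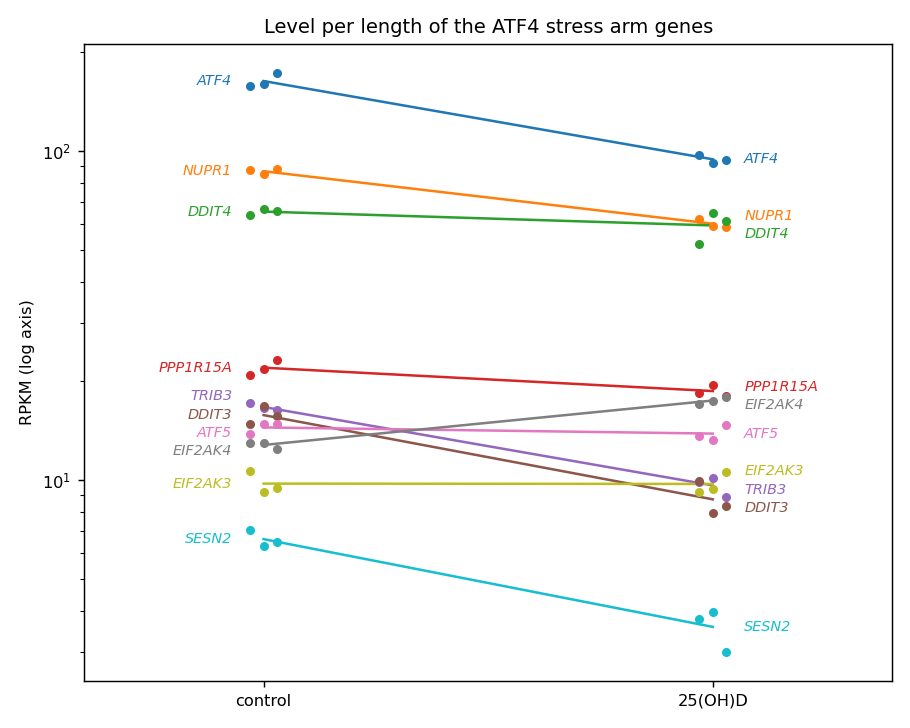
Level per length in RPKM (vertical log axis) of the 10 ATF4 stress arm genes in the 3 control and the 3 25(OH)D libraries (points), with lines joining the group means. The lines of EIF2AK4 and of TRIB3 and DDIT3 cross, as EIF2AK4 goes from 12.8 to 17.4 RPKM while TRIB3 goes from 16.7 to 9.63 and DDIT3 from 15.7 to 8.73 RPKM.

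The spread between libraries was small in control, with coefficients of variation from 2.06% for EIF2AK4 to 7.71% for EIF2AK3. In 25(OH)D libraries it ran from 2.83% for EIF2AK4 to 13.7% for SESN2, with DDIT3 at 12.6% and DDIT4 at 10.6%. No library was apart for the genes as a set: control library 3 was the highest control library for 4 of the 10 genes and the lowest for 2. Among the 6 genes called lower, 25(OH)D library 1 was the highest 25(OH)D library for 3, library 2 for 3 and library 3 for 0.

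Promoter windows from RefSeq (GRCh38.p14), running from 250 bases before to 50 bases after an annotated start, were found for 9 of the 10 genes. NUPR1 had none. Such a start need not be the outermost one of the counted gene. The first windows listed for ATF4 and for TRIB3 (chr20:381045-381344) lie inside the gene coordinates given above. The C/EBP-ATF element, searched as TGATGNAA on both strands, occurred in 3.62% of 35116 windows and in 0 of the 9. The cyclic AMP response element TGACGTCA, which reads the same on both strands, occurred in 1.85% of windows and in PPP1R15A alone, beginning 58 bases before the start. The core of the endoplasmic reticulum stress element (CCAAT, then 9 bases of any kind, then CCAC; both strands) occurred in 0.316% of windows and in DDIT3 alone, beginning 100 bases before the start. It includes the shorter CCAAT box, CCAAT, which occurred in 34.6% of windows and in DDIT3, DDIT4, EIF2AK3 and SESN2. The vitamin D response element of the DR3 type occurred in 0.0740% of windows and in 0 of the 9. All except TGATGNAA were chosen after the sequences had been seen, and a match is a description of letters only. Bases outside the windows were not searched, so a result of 0 of the 9 does not show that these genes lack the element. The windows of ATF4 (chr22:39520309-39520608, plus strand), DDIT3 (chr12:57520465-57520764, minus strand), PPP1R15A (chr19:48872171-48872470, plus strand) and EIF2AK4 (chr15:39933865-39934164, plus strand) are printed 5′ to 3′ in the direction of transcription, DDIT3 because it holds the endoplasmic reticulum stress element core and PPP1R15A because it holds the cyclic AMP response element, each in capitals, and ATF4 and EIF2AK4 as the named factor of the arm and the only gene called higher.
ATF4: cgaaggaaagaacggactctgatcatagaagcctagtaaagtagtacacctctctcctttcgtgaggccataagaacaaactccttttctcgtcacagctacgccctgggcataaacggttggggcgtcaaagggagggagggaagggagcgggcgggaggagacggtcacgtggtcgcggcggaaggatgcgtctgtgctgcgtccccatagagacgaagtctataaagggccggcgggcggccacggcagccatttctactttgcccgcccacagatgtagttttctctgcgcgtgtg
DDIT3: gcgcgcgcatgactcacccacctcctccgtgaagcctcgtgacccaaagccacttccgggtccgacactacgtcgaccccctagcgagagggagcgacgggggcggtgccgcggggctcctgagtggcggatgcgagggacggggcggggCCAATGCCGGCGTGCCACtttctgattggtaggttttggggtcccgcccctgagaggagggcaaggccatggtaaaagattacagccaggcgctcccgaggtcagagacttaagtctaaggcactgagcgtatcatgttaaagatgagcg
PPP1R15A: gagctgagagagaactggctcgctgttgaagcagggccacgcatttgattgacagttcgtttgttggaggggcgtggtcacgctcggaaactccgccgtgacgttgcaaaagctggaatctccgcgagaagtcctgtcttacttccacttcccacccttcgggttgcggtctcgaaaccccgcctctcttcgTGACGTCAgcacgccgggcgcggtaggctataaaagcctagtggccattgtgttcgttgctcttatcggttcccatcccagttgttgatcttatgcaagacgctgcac
EIF2AK4: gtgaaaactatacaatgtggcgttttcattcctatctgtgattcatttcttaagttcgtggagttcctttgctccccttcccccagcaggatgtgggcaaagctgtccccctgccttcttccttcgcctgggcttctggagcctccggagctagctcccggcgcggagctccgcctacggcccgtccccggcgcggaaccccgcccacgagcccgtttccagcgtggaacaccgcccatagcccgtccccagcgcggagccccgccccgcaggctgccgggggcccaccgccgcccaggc
The printed windows differ in composition, with a GC content of 57.3% for ATF4, 63.3% for DDIT3, 56.0% for PPP1R15A and 66.0% for EIF2AK4, against a median of 58.7% over all windows. TRIB3 had the highest GC content of the 9, at 77.0%, and ATF5 the lowest, at 50.3%.

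Genes known as targets of ATF4 were followed through 3 lists, whose counts, like those of the other lists, stand against 16.5% of all genes tested that were called lower and 17.3% called higher. Of 18 measured genes of amino acid supply, 9 fell and 3 rose, with a median log2 fold change of -0.20. SLC7A11, the cystine importer, fell the most, from 74.1 ± 1.14 to 17.4 ± 0.767 CPM (log2 fold change -2.09, SE 0.06, adjusted p = 2.13e-12). The glycine transporter SLC6A9 rose, from 21.2 ± 1.15 to 27.7 ± 1.13 CPM (0.38 on the log2 scale, SE 0.07, adjusted p = 0.000606). PSAT1, a serine synthesis enzyme, was at 0 to 4 counts per library and was not tested.

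Of 13 tRNA charging genes, 11 fell and 0 rose, with a median log2 fold change of -0.35. The glycyl-tRNA synthetase GARS went from 267 ± 15.2 to 153 ± 8.38 CPM (log2 fold change -0.80, SE 0.05, adjusted p = 1.90e-08). The members that did not pass were NARS, at -0.01, and the tRNA exporter XPOT, at 0.02. MARS, which overlaps DDIT3, is among the 11.

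Of 12 measured targets with signalling or secreted products, 5 fell and 2 rose, with a median of -0.05. The secreted glycoprotein STC2 fell, from 30.5 ± 1.31 to 8.63 ± 0.0638 CPM (log2 fold change -1.82, SE 0.07, adjusted p = 1.40e-10). CCPG1, a receptor for autophagy of the endoplasmic reticulum, rose (0.34, SE 0.04, adjusted p = 4.27e-06). These adjusted p-values and those that follow are from edgeR's quasi-likelihood test over all 18183 genes.

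The partners and neighbours of the 10 genes did not share a direction. Of 12 bZIP partners of ATF4, 7 rose and 3 fell, with a median of 0.43. JUNB, an AP-1 subunit, rose from 45.2 ± 1.13 to 78.0 ± 0.984 CPM (log2 fold change 0.79, SE 0.05, adjusted p = 1.57e-08), and the AP-1 repressor JDP2 fell (-0.53, SE 0.04, adjusted p = 7.45e-08). Of 20 genes for eIF2, its kinases, exchange factor and phosphatase other than the members, 4 fell and 3 rose, with a median of -0.01. EIF2S2, the beta subunit of eIF2, fell (-0.35, SE 0.05, adjusted p = 5.78e-05), and DNAJC3, an inhibitor of eIF2 kinases, rose (0.53, SE 0.06, adjusted p = 5.71e-06). Of 12 measured effectors of DDIT3 and apoptosis genes, 4 fell and 3 rose, with a median of -0.11. BBC3, a BH3-only protein that promotes apoptosis, fell from 2.07 ± 0.443 to 0.801 ± 0.257 CPM (-1.37, SE 0.29, adjusted p = 0.00199), and the death receptor TNFRSF10A rose (0.51, SE 0.07, adjusted p = 5.93e-05).

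The other arms of the unfolded protein response, run by IRE1 and ATF6, had 7 genes that rose and 2 that fell among 20, with a median of 0.10. EDEM1, which takes misfolded glycoproteins to degradation, rose from 43.3 ± 1.64 to 84.7 ± 3.85 CPM (log2 fold change 0.97, SE 0.05, adjusted p = 4.90e-09). XBP1, the transcription factor whose mRNA IRE1 splices, fell (-0.55, SE 0.03, adjusted p = 1.98e-09); it is also a luminal marker. Of 11 genes of the mitochondrial unfolded protein response, to which ATF5 belongs, 1 fell and 0 rose, with a median of 0.01. The one that fell was CLPX, a mitochondrial unfoldase, at -0.16 (SE 0.04, adjusted p = 0.0141), and its call was lost without control library 1, 25(OH)D library 2 or 25(OH)D library 3, with values of -0.13, -0.16 and -0.13.

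Around DDIT4 and SESN2, 2 of 25 measured genes of mTORC1 and its inputs rose and 2 fell, with a median of -0.0031. The mTOR-binding inhibitor DEPTOR fell from 7.72 ± 0.114 to 4.88 ± 0.184 CPM (-0.66, SE 0.11, adjusted p = 0.000334). GATSL3, now named CASTOR1, an arginine sensor, rose (0.63, SE 0.19, adjusted p = 0.0192), a call lost without control library 3 or 25(OH)D library 1, with values of 0.57 and 0.49. Around TRIB3 and NUPR1, 3 of 8 genes fell and 1 rose, with a median of -0.12; MSL1, a chromatin factor that binds NUPR1, fell (-0.26, SE 0.05, adjusted p = 0.000860), and RFWD2, now named COP1, the ubiquitin ligase that Tribbles proteins recruit, rose (0.34, SE 0.06, adjusted p = 0.000531).

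Some genes of the stress arm can also be induced through p53, whose part in these results was not tested. Counted beside them were 13 measured p53 targets outside the 10 genes. Of these, 6 rose and 1 fell, with a median of 0.31; the antiproliferative gene BTG2 rose (2.11, SE 0.05, adjusted p = 1.93e-13) and PLK2, a polo-like kinase, fell (-1.02, SE 0.04, adjusted p = 1.96e-10). Of 10 measured targets and partners of the vitamin D receptor, 7 rose and 1 fell, with a median of 1.39. This list was chosen with earlier results of these data known, so it is no independent check of the treatment. CYP24A1, another gene of the list, was absent from the genes counted. The calcium channel TRPV6 rose from 71.6 ± 1.63 to 792 ± 13.3 CPM (3.47, SE 0.04, adjusted p = 2.12e-16) and RXRA, the partner of the vitamin D receptor, fell (-0.37, SE 0.09, adjusted p = 0.00429). All 12 lists together held 174 measured genes, of which 46 fell and 41 rose, with a median of 0.02. The share of genes called was 35.0% in the eIF2 list, close to the 33.8% of all genes tested, and it was below that in the mTORC1 list (4 of 25 genes) and the mitochondrial list (1 of 11 genes). It ran from 45.0% in the IRE1 and ATF6 list to 84.6% in the tRNA charging list in the other 9. All lists were chosen with earlier results known and were not matched in level to all genes tested, so nothing is read from these shares.

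**Figure D4:**
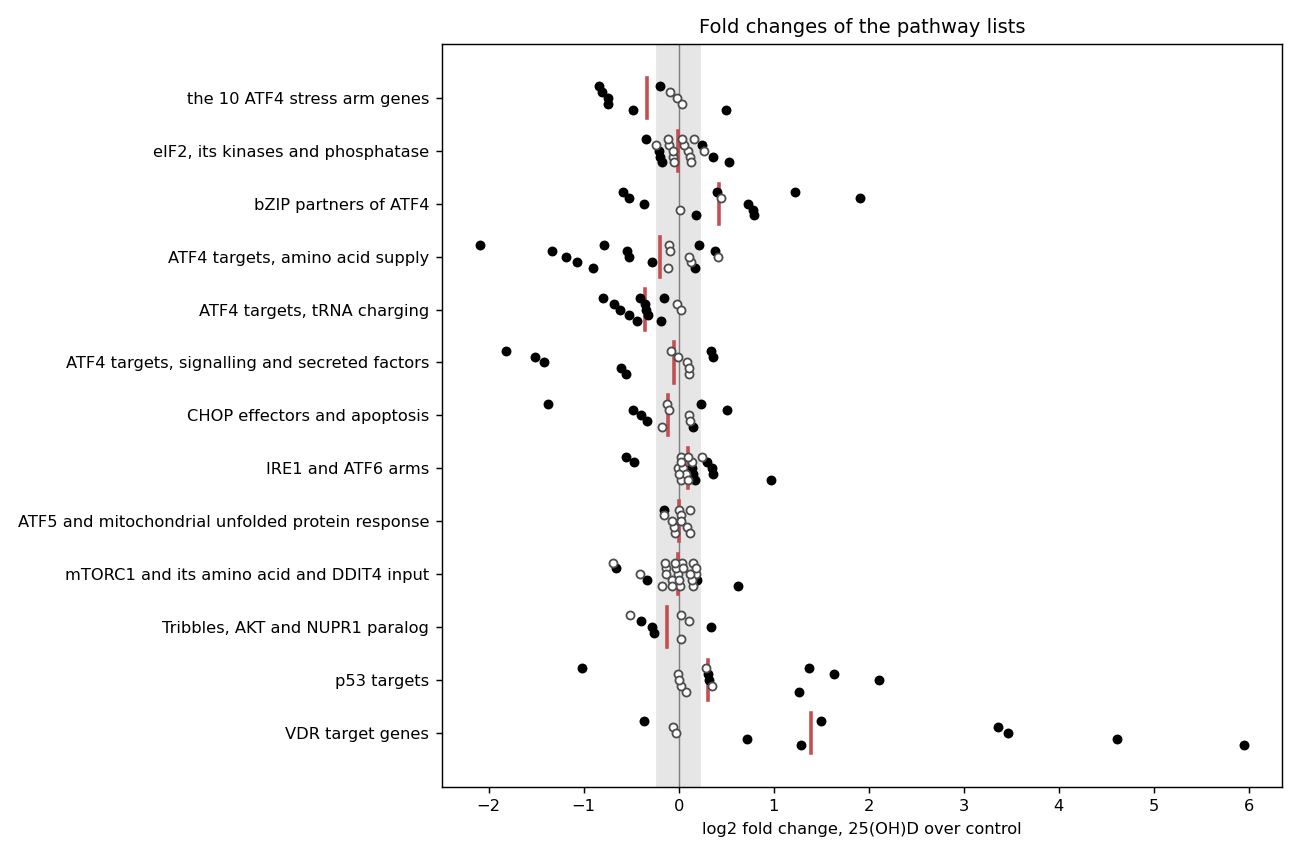
Log2 fold change of 25(OH)D over control (horizontal axis) of each measured gene in the 10 ATF4 stress arm genes (top row) and 12 lists of related genes, with filled points for genes at an adjusted p under 0.05, open points for the others, red lines at list medians and a grey band at the quartiles of all genes tested. In the tRNA charging list 11 of 13 genes fell, while the eIF2, mitochondrial and mTORC1 lists centre near 0 and the VDR target list has a median of 1.39.

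The genes whose profile over the 6 libraries was most like the mean of the 10 genes were sought among 10747 others. By Pearson's r with the mean centred log2 CPM of the 10 genes they were TMPO, a lamina-associated protein, at 0.99975, LAD1, an anchoring filament protein, at 0.99972, HMGB2, a chromatin protein, at 0.99955, STC2 at 0.99924 and PTPN13, a tyrosine phosphatase, at 0.99915. The 6 libraries fall into the groups of the study, so r mainly reflects the gap between these, and its value is a description. All 5 genes were lower in 25(OH)D libraries, with log2 fold changes of -0.35 for TMPO, -1.53 for LAD1, -1.04 for HMGB2, -1.82 for STC2 and -0.75 for PTPN13.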

How the data were processed

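Polyadenylated RNA of MDA-MB-453 cells, 3 control and 3 25(OH)D libraries, was sequenced in pairs with a stranded kit. Per the labels, the authors trimmed reads with Trimmomatic 0.36, counted them on GRCh38 genes with featureCounts (Subread 1.5.1) and used edgeR 3.12.1; the aligner, the annotation release and the strand setting are not given in the sources used here. The deposited table holds raw counts per gene and RPKM values, which the authors made from counts, exon length and library totals. Of counts from 1 to 20, 66.0% to 68.0% were even, so mates of a pair appear to be counted separately.

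Counts were tested with edgeR 4.0.16 (R 4.3.3, TMM factors, minimum count 10, quasi-likelihood fit, Benjamini-Hochberg adjusted p under 0.05). Simulated data for this comparison held 17953 genes, 200 of them changed, with a common spread for all genes. There the test recovered 50 of 50 genes at a log2 fold change of -1, 50 of 50 at 1, 37 of 50 at -0.5 and 36 of 50 at 0.5. CPM uses TMM-scaled totals; intervals are 95%, from the fit. Levels between genes use RPKM. The paper describes its mRNA sequencing replicates as biological, but nothing in the labels says that libraries came from separate cultures. The p-values measure the spread between these libraries, which may be technical. No pair of libraries of a group agreed within sampling noise.

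The 10 genes and the lists were chosen with earlier results of these data known. Besides the 10 genes, the text names, in each of 12 lists, the called gene with the smallest p in each direction (if the group with more reads averaged 20 counts or over), and the 5 genes most like the mean of the 10 (mean of at least 100 counts). Paralogues, genes sharing exon bases, and NARS, XPOT, PSAT1 and CYP24A1 were named after the results were seen. Alternatives were other scaling factors, no filter, DESeq2 1.42.0, limma 3.58.1 on log2(RPKM + 1) and log2(RPKM + 0.1), a replicate block, each library left out, and, chosen after seeing the data, subtraction of expected opposite-strand reads.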

Additional observations from a re-analysis of the deposited data

How the results depend on the processing

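Over all alternatives 1 of the 10 ATF4 stress arm genes was called higher, and 6 were called lower except when 1 library was left out, where 5 to 6 were. Of all genes tested, 3138 were called higher and 3004 lower, and the balance turned with scaling: library sizes alone gave 2689 higher and 3667 lower, upper-quartile factors 2705 and 3613, and limma on log2(RPKM + 1) 2391 and 3167. The lists gave 38 higher and 52 lower with library sizes alone. Leaving out a library gave 2742 to 3031 genes higher and 2349 to 2666 lower, and over the 12 lists 37 to 42 higher and 40 to 45 lower. ATF4, DDIT3, TRIB3, SESN2, NUPR1 and EIF2AK4 kept direction and call in every alternative run. ATF5 and EIF2AK3, which passed no test, changed sign: ATF5 ran from -0.054 to 0.025 on the log2 scale when libraries were left out (0.0014 without control library 2, 0.0092 without control library 3 and 0.025 without 25(OH)D library 2) and was 0.0039 with opposite-strand reads subtracted. EIF2AK3 was -0.0017 with upper-quartile factors, -0.0047 with library sizes alone, -0.0032 on log2(RPKM + 1), -0.0035 on log2(RPKM + 0.1) and ran from -0.018 to 0.11 when libraries were left out, with -0.018 without 25(OH)D library 3. The cause was not tested. Counts of calls in single lists moved by over 1.5 times in 30 cases, all of small counts. The simulation gave every gene a common spread and changed 200 genes, so it did not copy the spread of each gene in these libraries. In it, part of the changes of 0.5 on the log2 scale were missed. That share does not measure what was missed in the real data, where 33.8% of genes were called. A gene not called may still have changed.

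No shared deviation was seen between libraries of the same replicate number, with correlations of -0.072, -0.012 and -0.046. Deviations were taken from means of 3 libraries, so these values cannot show whether same-numbered libraries were handled together. With the number as a replicate block, 3057 genes were called higher and 2896 lower over the whole table, 1 and 6 of the 10 genes, and 41 and 43 genes of the lists.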
